A study of Ovis aries with 16 samples.

Results

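Small nucleolar RNAs (snoRNAs) that were present in both liver and muscle of female sheep are described here, 89 of the 694 rows of the snoRNA table. A row was taken when its mean was at least 5 normalised reads over the 8 livers and at least 5 over the 8 muscles. This held for 105 rows, of which 14 were set aside by a fixed list, and 2 pairs of rows with equal values were merged. The members were therefore chosen by their level in these same libraries, and that they were found in both tissues is a description and not a result. All 89 carry LOC identifiers and no snoRNA name in the files or in the gene table used, so their class and their target bases are not given here.

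The study sequenced small RNA from liver and muscle of 8 ewes. Ewes 98, 131, 132 and 201 were control animals and ewes 48, 185, 233 and 255 had been exposed to excess testosterone before birth (prenatal T). Each ewe gave both tissues, which makes 16 libraries in 4 groups of 4. Age, breed, testosterone dose and the muscle sampled are not given in the labels.

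SnoRNAs guide the chemical modification of other RNAs, mainly ribosomal RNA, in the nucleolus. Box C/D snoRNAs, usually the shorter class, carry the methyltransferase fibrillarin together with NOP56 and NOP58 to sites of ribose methylation, and box H/ACA snoRNAs, usually longer, direct the conversion of uridine to pseudouridine. Most mammalian snoRNAs are cut from introns of host genes, many of which encode ribosomal proteins, translation factors or nucleolar proteins. Liver and muscle both need ribosomes, and most snoRNAs of this kind are produced in all tissues.

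The hosts of the members were read from the RefSeq gene table of assembly ARS-UI_Ramb_v3.0, in which 86 of the 89 members were listed. Of these, 75 lay inside another gene and 11 between genes. The 75 shared 51 hosts, and 12 hosts held 2 or more members, 36 members in all. Hosts that encode ribosomal proteins held 18 members in 10 genes, among them RPL7A and RPL13A with 3 each and RPL3 and RPS12 with 2 each. Translation factor genes held 5 members in 4 genes, 2 of them in EIF4A2, a helicase of the initiation complex. NOP56, which encodes a core protein of the box C/D particle itself, held 4 members. Long non-coding RNA or pseudogene hosts held 10 members, 4 of them in LOC114110053, which lies between WDR74 and SLC3A2, the interval that in human holds the snoRNA host gene SNHG1. TEX14 held 7 members of 214 to 232 bases, and 4 of them (LOC114117131, LOC114117127, LOC114117129 and LOC114117128) had values within 10% of another. Members in the same host can come from one transcript, and near-equal copies can share reads, so the 89 members are not independent of each other. Near-equal pairs outside TEX14 included LOC114113417 in PADI3 with LOC114117091 and LOC114111253 in EIF4A2 with LOC114110359, and single values of these are uncertain. The same holds for LOC114109177 and LOC114114235. LOC114109177 had the same fitted prenatal T difference in each tissue as a row set aside, and LOC114114235 in muscle.

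The libraries held 5278 to 13951 snoRNA reads in liver and 2180 to 5766 in muscle. Members took 50.0% ± 5.91 of snoRNA reads in control liver, 52.5% ± 3.30 in prenatal T liver, 49.7% ± 2.28 in control muscle and 48.3% ± 2.08 in prenatal T muscle (SD, n = 4 each). Of the 89, 84 had reads in all 16 libraries. The mean share of a single member ran from 0.123% to 2.23% of snoRNA reads, so that a typical member rests on few reads per muscle library. Just inside the limit of 5 were LOC114114259 and LOC114114261 in liver (means 5.21 and 5.44) and LOC114118175 and LOC114111289 in muscle (5.05 and 5.17), and just outside were LOC114114654 and LOC114118590 in liver (4.55 and 3.46) and LOC114110701 and LOC114114237 in muscle (4.97 and 4.82). The tissue labels were checked on microRNAs: MIR133, a muscle microRNA, took 37.2% to 56.4% of miRNA reads in muscle and 0.029% to 0.227% in liver, and MIR148A with MIR194, abundant in liver, took 9.97% to 14.6% in liver and 0.187% to 0.351% in muscle.

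The labels number the libraries in 2 separate blocks, a lower one (called set 1 here) and a higher one (set 2). They do not say what the blocks stand for. Set 1 holds the livers of control ewe 98 and prenatal T ewe 48 and the muscles of every ewe but 255. Set 2 holds the other 6 livers, 3 control and 3 prenatal T, and the muscle of prenatal T ewe 255. A second number of each library goes from 25 to 33 in set 1 and from 27 to 33 in set 2. The livers of ewes 98 and 48 hold 25 and 26, which precede 27 in either series. This number alone thus does not place them in set 1, and grouping them with set 2 was not tested. Sets 1 and 2 stood apart in the members, so their difference is given first. Counts of later calls are given with and without the set as a covariate. SnoRNA reads made up 2.89% and 0.830% of the reads of 4 RNA classes (microRNA, snoRNA, small nuclear RNA and long non-coding RNA) in the livers of ewes 98 and 48, 2.11% to 2.82% in the set 2 livers, 0.234% to 0.386% in the set 1 muscles and 1.42% in muscle of ewe 255.

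A group of short snoRNAs was several times higher in set 2 than in set 1, in liver and in the single set 2 muscle, and members of one host could differ in this. In liver, 29 members were higher and 7 lower in set 2 (limma with exposure as a covariate, adjusted p under 0.05), where over all 161 rows tested 29.2% were higher and 12.4% lower. The comparison was added after the values had been seen. The 29 were 63 to 85 bases long (median 73) and 0.69 to 5.06 higher on the log2 scale of the normalised reads plus 1. The median ratio of their set means was 3.64. Because 2 of the 29, LOC114113431 and LOC114110519, had set 1 liver means under 5, they reached the limit of the rule only through the set 2 livers, and 2 other members, LOC114114259 and LOC114114261, only through those of set 1. Without the liver of ewe 98, set 1 is a single library, which the fit takes to vary like the set 2 livers that alone give the spread. On that assumption 23 members were called, 22 of them higher.

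Within liver, the scale matters for the split. The deposited scaling left the median of all 161 rows at -0.02 between sets, and scaling to the total of snoRNA reads moved it to -0.63. With that scaling 19 members were higher and 36 lower in set 2, where 18.6% of all rows were higher and 36% lower. In 8 members the set means were more than 8-fold apart, beyond that shift.

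TRPV2, an ion channel gene, holds LOC114117064. It had 21.5 and 28.6 normalised reads in the livers of ewes 98 and 48 and 275 to 355 (median 317) in the 6 livers of set 2 (log2 difference 3.63, SE 0.19, limma adjusted p = 8.14e-09). Its values were 5.31 to 15.9 (median 9.46) in the 7 muscles of set 1 and 79.2 in muscle of ewe 255. No set 1 library of either tissue reached the lowest set 2 library of the same tissue.

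The lncRNA LOC114110053 holds 4 members that did not move together. LOC114110194 had 22.8 and 8.3 normalised reads in the livers of ewes 98 and 48 and 249 to 364 (median 314) in the 6 livers of set 2 (log2 difference 4.41, SE 0.25, limma adjusted p = 1.48e-08), and 3.25 to 9.55 (median 6.19) in the 7 muscles of set 1 and 121 in muscle of ewe 255. LOC114110200 had 20.1 and 5.54 normalised reads in the livers of ewes 98 and 48 and 102.5 ± 13.1 (SD, n = 6) in those of set 2 (log2 difference 3.13, SE 0.34, limma adjusted p = 6.55e-06), and 5.31 to 11.7 (median 8.75) in the 7 muscles of set 1 and 110.0 in muscle of ewe 255. LOC114110201 had 46.96 and 25.8 normalised reads in the livers of ewes 98 and 48 and 116.6 to 222 (median 186) in the 6 livers of set 2 (log2 difference 2.27, SE 0.26, limma adjusted p = 1.10e-05), and 5.4 to 24.4 (median 13.4) in the 7 muscles of set 1 and 95.4 in muscle of ewe 255. The fourth, LOC114110199, overlapped between sets in both tissues, with 43.6 and 75.7 normalised reads in the livers of ewes 98 and 48 and 54.8 to 92.2 (median 76.8) in the 6 livers of set 2 (log2 difference 0.39, SE 0.28, limma adjusted p = 0.287), and 6.47 to 20.3 (median 17.02) in the 7 muscles of set 1 and 12.9 in muscle of ewe 255.

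Members in ribosomal protein genes also differed in the size of the step inside a host. In the gene of RPS12, a protein of the small subunit, LOC114116284 had 3.35 and 10.2 normalised reads in the livers of ewes 98 and 48 and 97.4 to 244 (median 194) in the 6 livers of set 2 (log2 difference 4.64, SE 0.39, limma adjusted p = 4.99e-07), and 1.29 to 3.54 (median 2.7) in the 7 muscles of set 1 and 24.3 in muscle of ewe 255. The other RPS12 member, LOC114116240, had 20.1 and 22.1 normalised reads in the livers of ewes 98 and 48 and 62.2 to 83.5 (median 72.4) in the 6 livers of set 2 (log2 difference 1.72, SE 0.23, limma adjusted p = 3.92e-05), and 7.31 to 15.5 (median 13.3) in the 7 muscles of set 1 and 24.3 in muscle of ewe 255, a smaller step in both tissues. Of the 18 members in ribosomal protein genes 7 were called higher and 0 lower in set 2 livers, where 29.2% of all rows were higher and 12.4% lower, and their median log2 difference was 0.025, against -0.017 over all rows.

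Inside NOP56 members were called both ways. LOC114117650, whose row is equal to that of LOC114117651, had 31.5 and 23.99 normalised reads in the livers of ewes 98 and 48 and 202 to 288 (median 236) in the 6 livers of set 2 (log2 difference 3.09, SE 0.20, limma adjusted p = 3.64e-08), and 2.7 to 7.77 (median 6.7) in the 7 muscles of set 1 and 92.2 in muscle of ewe 255. LOC114117669 had 29.5 and 34.1 normalised reads in the livers of ewes 98 and 48 and 41.8 to 85.8 (median 72.8) in the 6 livers of set 2 (log2 difference 1.02, SE 0.30, limma adjusted p = 0.0162), and 7.16 to 16.2 (median 8.55) in the 7 muscles of set 1 and 37.2 in muscle of ewe 255. LOC114117648, of 71 bases like LOC114117650, was lower in set 2, with 24.8 and 31.4 normalised reads in the livers of ewes 98 and 48 and 10.7 to 17.4 (median 15.1) in the 6 livers of set 2 (log2 difference -0.95, SE 0.30, limma adjusted p = 0.023), and 8.55 to 15.5 (median 13.5) in the 7 muscles of set 1 and 4.85 in muscle of ewe 255. Another member, LOC114117649, had the same recovered reads as LOC114117648 in liver of ewe 98 and in all 7 muscles of set 1. Its livers overlapped between sets, with 24.8 and 32.3 normalised reads in ewes 98 and 48 and 22.6 to 37.8 in set 2. Whether these rows share reads was not tested, so the lower value of LOC114117648 in set 2 is uncertain. NOP56 thus held 2 members called higher and 1 called lower, the latter with this limit.

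Translation factor genes held 1 member called higher and 2 called lower, of 5, a median log2 difference of -0.77, where 29.2% of all rows were called higher and 12.4% lower with a median of -0.017. With 5 members nothing is read from these counts. Both kinds were found in EIF4A2: LOC114111381, of 69 bases, had 14.8 and 8.3 normalised reads in the livers of ewes 98 and 48 and 147 to 190.4 (median 174) in the 6 livers of set 2 (log2 difference 3.81, SE 0.25, limma adjusted p = 3.64e-08), and 2.39 to 6.5 (median 3.09) in the 7 muscles of set 1 and 22.6 in muscle of ewe 255. The EIF4A2 member of 132 bases, LOC114111253, had 27.5 and 24.9 normalised reads in the livers of ewes 98 and 48 and 4.86 to 19.1 (median 11.6) in the 6 livers of set 2 (log2 difference -1.19, SE 0.41, limma adjusted p = 0.0355), and 4.05 to 14.7 (median 8.77) in the 7 muscles of set 1 and 4.85 in muscle of ewe 255. LOC114111253 is near-equal to LOC114110359 (summed difference 0.82% of the mean), for which no host is listed. The reads of LOC114111253 are thus not placed in EIF4A2 with certainty, and the contrast inside this host has that limit. LOC114117101 in EIF4A1, of 141 bases, was lower too (log2 difference -0.77, SE 0.27, limma adjusted p = 0.0383). LOC114113393 in EEF1B2, a subunit of the elongation factor that reloads eEF1A, had nearly level sets (log2 difference 0.03, SE 0.31, limma adjusted p = 0.937).

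Further members with large ratios lay in unrelated hosts. In C23H18orf32, LOC114110519 had 4.03 and 3.69 normalised reads in the livers of ewes 98 and 48 and 129 to 217 (median 156) in the 6 livers of set 2 (log2 difference 5.06, SE 0.23, limma adjusted p = 4.16e-09), and 0 to 7.08 (median 1.55) in the 7 muscles of set 1 and 111.6 in muscle of ewe 255. Its host partner LOC114110518 differed far less (log2 difference 0.86, SE 0.31, limma adjusted p = 0.038). LOC114118129 in SF3B3, a splicing factor gene, had 36.9 and 24.9 normalised reads in the livers of ewes 98 and 48 and 204 to 234 (median 226) in the 6 livers of set 2 (log2 difference 2.84, SE 0.19, limma adjusted p = 6.26e-08), and 6.1 to 13.5 (median 8.85) in the 7 muscles of set 1 and 228 in muscle of ewe 255, so that muscle of ewe 255 lay within the range of the set 2 livers as deposited, though the 2 tissues have separate scales. LOC114113431 in UBAP2 had 1.34 and 0 normalised reads in the livers of ewes 98 and 48 and 20.7 to 37.1 (median 27.5) in the 6 livers of set 2 (log2 difference 4.20, SE 0.41, limma adjusted p = 1.90e-06), and 0 to 3.88 (median 0.885) in the 7 muscles of set 1 and 35.6 in muscle of ewe 255. LOC114109765 in LOC101116687 and LOC114110209 in TAF1D, a subunit of the RNA polymerase I factor, were also higher (log2 difference 2.77, SE 0.21, limma adjusted p = 1.37e-07 and log2 difference 2.84, SE 0.23, limma adjusted p = 2.77e-07).

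**Figure D1:**
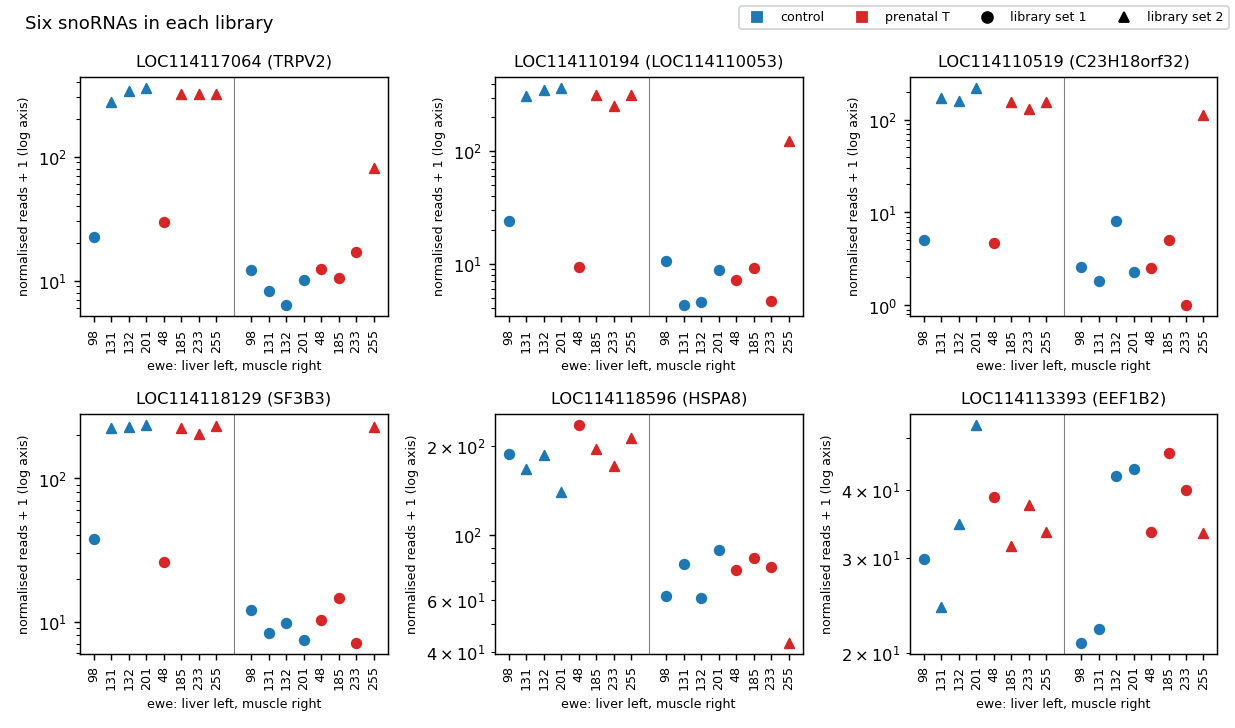
Normalised reads plus 1 on a log axis for 6 members in each library, liver on the left of each panel and muscle on the right, with control ewes in blue, prenatal T ewes in red, circles for set 1 and triangles for set 2. In the panels of LOC114117064, LOC114110194, LOC114110519 and LOC114118129 the triangles lie above every circle of the same tissue, and in those of LOC114118596 and LOC114113393 circles and triangles overlap in liver.

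Most members that were higher in set 2 livers were also high in muscle of ewe 255. Since it is the only set 2 muscle, no test was made there, and set, ewe and library cannot be told apart. It was the highest of the 8 muscles in 34 members, 38.2% of the 89, and over all 110 rows tested in muscle the share was 38.2% as well. It was the lowest in 27, or 30.3%, against 28.2% of the rows tested. Of the 29 members higher in set 2 livers, 26 had their highest muscle value in ewe 255, and the median ratio of ewe 255 to the set 1 muscle mean was 5.72. The exceptions were LOC114110518, LOC114117058 and LOC114111819. All set 2 livers lay above both set 1 livers in 28 members (31.5%), against 28% of the rows tested, and 25 of these 28 had ewe 255 highest in muscle. None of the 7 members lower in set 2 livers had ewe 255 above the set 1 muscle mean. Across the 89 members the 2 set differences had a Pearson r of 0.83 and a Spearman rho of 0.72, a description only, since members share libraries and hosts. Ewe 255 also entered the choice of members: without its muscle, 7 had a muscle mean under 5, 5 of them among the 29. Those 5 include LOC114110519, LOC114113431, LOC114116284 and LOC114111381. For the 5 a high value in muscle of ewe 255 was required by the rule. The 26 of the 29, the median ratio and the correlations above were computed with them. The limit was passed without the muscle of ewe 255 and in each liver set alone by 80 members. Of these, 24 were called higher in set 2 livers and 27 had ewe 255 highest in muscle.

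**Figure D2:**
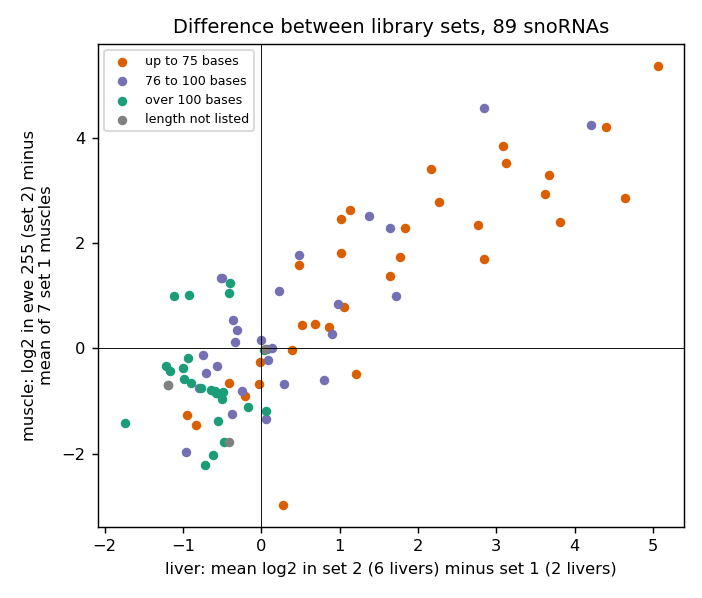
Log2 difference between library sets for each of the 89 members, liver on the x axis (mean of 6 set 2 livers minus mean of 2 set 1 livers) and muscle on the y axis (ewe 255 minus the mean of 7 set 1 muscles), colours giving annotated length. The points with the largest differences, up to 5.06 in liver and 5.37 in muscle for LOC114110519, lie high in both tissues and are members of up to 100 bases. LOC114110519 met the limits of the rule only through the set 2 livers and the muscle of ewe 255, so its place was partly given by the rule.

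Annotated length, from the same gene table and for 86 of 89 members, separated these groups. Of the 32 members of up to 75 bases, 22 were called higher and 1 lower in set 2 livers, with a median log2 difference of 1.17. Of the 28 members of 76 to 100 bases, 7 were higher and 2 lower, with a median of 0.065. Of the 26 members over 100 bases 0 were higher and 3 lower, with a median of -0.63. All rows tested with a length had medians of 1.08, 0.065 and -0.79 in these classes, so a step with length was also present over all rows. Over rows of every length 29.2% were called higher and 12.4% lower, and these shares were not computed by length. For muscle of ewe 255 the medians over members were 1.72, 0.14 and -0.77. Length and the liver difference had a Spearman rho of -0.67 across the 86 members. Members of 71 bases were called in both directions, as in NOP56 above, with the limit given there for LOC114117648. The part of length in these differences was not tested, and read lengths were not analysed here.

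**Figure D3:**
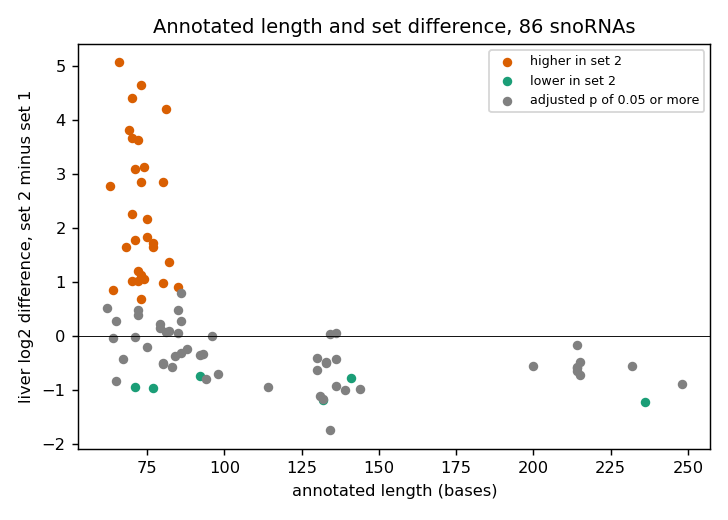
Annotated length in bases against the liver log2 difference, set 2 minus set 1, for the 86 members with a length, coloured by the limma call. Every member called higher is 63 to 85 bases long, and no member over 100 bases is called higher.

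Other RNAs were compared over the same sets. In muscle, ewe 255 lay outside the range of the set 1 muscles for 4 of the 5 microRNA marker lists. MIR133, a muscle microRNA and the only one of its 3 listed in the table, took 50.0% to 56.4% of miRNA reads in the set 1 muscles and 37.2% in ewe 255. MIR16B, the only one of 3 listed red cell microRNAs in the table, took 0.207% to 0.288% and 0.474%, and MIR150, a lymphocyte microRNA, 0.189% to 0.389% and 0.531%. MIR10B, MIR143 and MIR199A, 3 of 4 listed for endothelial and mesenchymal cells, summed to 2.62% to 4.04% and 1.95%. The liver microRNAs MIR148A and MIR194, 2 of 3 listed, took 0.187% to 0.351% in the set 1 muscles and 0.312% in ewe 255, within that range. In liver the sets overlapped for each of the 5 lists. The set 1 and set 2 livers had 0.300% and 0.496% against 0.465% to 0.607% for MIR16B, 0.0878% and 0.184% against 0.106% to 0.155% for MIR150, and 9.30% and 11.4% against 7.35% to 10.4% for the endothelial and mesenchymal sum. For the liver microRNAs the values were 10.7% and 14.6% against 9.97% to 13.7%, and for MIR133 0.0397% and 0.227% against 0.0290% to 0.0639%. The part of other cell types in the set difference was not tested. Of the host genes, 7 had a row of their own in the long non-coding RNA table. In liver 2 of these rows, LOC101104162 and LOC101116687, were higher in every set 2 library than in both of set 1, and the other 5 overlapped between sets. In muscle, ewe 255 was the highest in 5 of the 7 and the lowest in 1. The shares over all long non-coding RNA rows were not computed, so nothing is read from these counts. The row of LOC101116687, a transcribed pseudogene that holds LOC114109765, had 98.1 and 43.7 normalised reads in the livers of ewes 98 and 48 and 344 to 453 in set 2, and 6.96 to 24.6 in the set 1 muscles and 119.8 in ewe 255. That of LOC105609544, which holds LOC114117662, had 1441 and 635 in the set 1 livers and 558 to 1005 in set 2, and 232 to 341 in the set 1 muscles and 501 in ewe 255. Whether such a row and the snoRNA inside it count the same reads was not tested.

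Prenatal T livers and muscles were compared with controls, the main question of the study. In liver 0 of the 89 members passed (limma, adjusted p under 0.05), with 0% of the 161 rows called, and the smallest adjusted p was 0.982. In muscle 0 of 89 passed, with 0% of 110 rows called and a smallest adjusted p of 0.873. No member had an unadjusted p under 0.05 in either tissue, and edgeR and DESeq2 on the recovered reads also called 0. In no member did all 4 prenatal T libraries lie above or below all 4 controls, in either tissue. The median log2 difference was 0.042 over members in liver (all rows -0.043) and 0.0066 in muscle (all rows 0.060), with 47 members higher and 42 lower in each. The median size of the difference was 0.22 in liver and 0.34 in muscle, against median standard errors of 0.44 and 0.45. By host group, 0 of 18 members in ribosomal protein genes passed in each tissue, with medians of 0.13 in liver and 0.036 in muscle, and 0 of 5 in translation factor genes, with medians of 0.053 and 0.32. Large changes could be missed with this depth, spread and number of libraries: in simulated reads of this depth and spread, 36% of 4-fold and 7% of 2-fold changes were recovered in liver, and 48% and 7% in muscle. The simulated rows varied independently, without the step between library sets that many rows shared, so these rates are a rough guide.

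The smallest liver p-values belonged to 5 members whose groups overlapped. Values are given in the order of ewes 98, 131, 132 and 201 for controls and 48, 185, 233 and 255 for prenatal T. LOC114110868 in CCAR1, a regulator of the cell cycle and of apoptosis, had normalised reads of 6.71, 12.6, 19.8 and 10.3 in control and 24.9, 18.9, 19.1 and 18.6 in prenatal T liver (log2 difference 0.76, SE 0.35, limma adjusted p = 0.982). LOC114117126 in TEX14 had 13.4, 12.6, 43.6 and 23.5 in control and 26.8, 10.2, 10.4 and 3.71 in prenatal T liver (log2 difference -0.92, SE 0.57, limma adjusted p = 0.982), and control ewe 132 was the highest. LOC114109761 in the RNA helicase gene DDX39B had 17.4, 12.6, 4.96 and 12.2 in control and 2.77, 9.45, 3.48 and 11.1 in prenatal T liver (log2 difference -0.80, SE 0.51, limma adjusted p = 0.982). In each of these 3 at least 1 prenatal T liver lay within the range of the controls. LOC114114235, between TUBA8 and CDC42EP1, had 9.39, 4.86, 8.92 and 5.64 in control and 6.46, 2.91, 5.22 and 2.78 in prenatal T liver (log2 difference -0.64, SE 0.41, limma adjusted p = 0.982). LOC114118623 in RPS3, a protein of the small subunit, had 16.8, 8.75, 6.94 and 5.64 in control and 8.3, 2.91, 6.96 and 3.71 in prenatal T liver (log2 difference -0.69, SE 0.45, limma adjusted p = 0.982), and without ewe 98 its log2 difference was -0.40. Within the 6 set 2 livers the differences of LOC114109761 and LOC114110868 were -0.31 and 0.43, that of LOC114117126 was -1.54, and those of LOC114114235 and LOC114118623 were -0.69 and -0.60. Without control ewe 132 LOC114117126 had -0.57, and without prenatal T ewe 255 it had -0.50.

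In muscle the smallest p-values came partly from ewe 255. LOC114117064 in TRPV2 had normalised reads of 11.1, 7.31, 5.31 and 9.06 in control and 11.3, 9.46, 15.9 and 79.2 in prenatal T muscle (log2 difference 1.19, SE 0.59, limma adjusted p = 0.873). Without ewe 255, the difference was 0.54. LOC114114212 in RPL7A, a protein of the large subunit, had 3.18, 4.87, 2.65 and 7.77 in control and 3.09, 6.76, 8.55 and 27.5 in prenatal T muscle (log2 difference 0.86, SE 0.59, limma adjusted p = 0.873), and without ewe 255 its difference was 0.34. LOC114110518 in C23H18orf32 had 15.1, 16.2, 27.4 and 22.01 in control and 11.3, 13.5, 9.77 and 21.02 in prenatal T muscle (log2 difference -0.52, SE 0.32, limma adjusted p = 0.873), and LOC114109177, between SNRPN and UBE3A in an imprinted region, had 15.1, 12.2, 7.08 and 11.7 in control and 15.5, 17.6, 14.7 and 19.4 in prenatal T muscle (log2 difference 0.54, SE 0.30, limma adjusted p = 0.873). In all 4 the groups overlapped. Without ewe 255 LOC114110518 had a log2 difference of -0.73 (SE 0.30, limma adjusted p = 0.755) and LOC114109177 one of 0.47, and without control ewe 132 LOC114109177 had 0.35.

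LOC114117367 inside RAB3GAP2, a gene for a regulator of vesicle traffic, had a muscle difference that rested on ewe 185. It had normalised reads of 50.1, 71.5, 91.1 and 73.8 in control and 91.8, 5.4, 62.3 and 37.2 in prenatal T muscle (log2 difference -1.04, SE 0.69, limma adjusted p = 0.873), and -0.23 without ewe 185. In liver it had 31.5, 55.4, 79.3 and 36.7 in control and 144, 0.727, 36.5 and 72.4 in prenatal T liver. Ewe 185 was the lowest in both tissues, at 0.0131 of the median of the other 7 livers and 0.0756 of that of the other 7 muscles. Only 1 other member, LOC114113431, had an ewe below 0.25 of the median of the others in both tissues, ewe 98, whose liver and muscle were both of set 1, and no member had an ewe above 4 times it in both. The same was true of the 105 rows found in both tissues before the 14 were set aside. LOC114113431 had 0 reads in muscle of ewe 98 but also in those of ewes 185 and 233, so its muscle value does not set ewe 98 apart. Both members were singled out after their values were seen.

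With the library set as a covariate the spread fell and the calls did not change. In liver the median standard error went from 0.44 to 0.29, 3 members had an unadjusted p under 0.05 and the smallest adjusted p was 0.676. In muscle, where the term removes ewe 255, 3 members had an unadjusted p under 0.05 and the smallest adjusted p was 0.849. Whether the 2 tissues responded differently was tested as an interaction, which was called in 0 of 89 members, with 0% of 153 rows called and a smallest adjusted p of 0.917 by limma. No member had an unadjusted p under 0.05. The interaction's median over members was -0.031, with a median standard error of 0.63. In simulated data this test recovered 10% of 4-fold and 1% of 2-fold changes, so large differences could be missed.

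**Figure D4:**
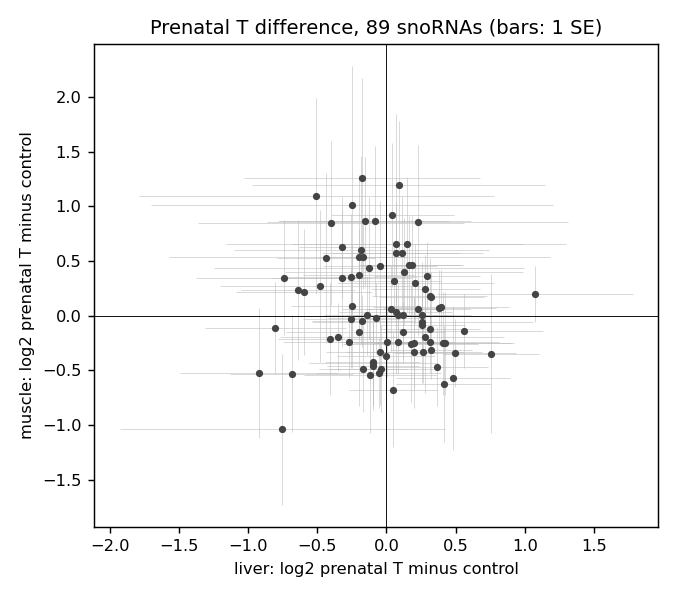
Log2 difference between prenatal T and control in liver (x axis) and muscle (y axis) for the 89 members, with bars of 1 standard error. The points spread around 0 in both directions in both tissues, within 1.07 in liver and 1.26 in muscle, and none passed the test.

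Liver and muscle were set side by side on the recovered reads scaled jointly over the 16 libraries. In bulk tissue fewer cells of a type and less RNA per cell cannot be told apart. The rule used the level in each tissue, so the calls are given as a description: 21 members were higher in liver and 14 in muscle (limma, adjusted p under 0.05), where 26.4% and 15.3% of all 144 rows were. Scaled to the total of snoRNA reads instead, 18 were higher in liver and 24 in muscle, against 21.5% and 24.3% of all rows, and the median of all rows went from 0.23 to -0.20. Of the 21 members higher in liver, 18 were also higher in set 2 livers than in set 1, and 6 of the 8 livers but 1 of the 8 muscles are of set 2. With the set as a covariate 13 were higher in liver and 13 in muscle, against 16% and 14.6% of all rows. Of the 21, 10 were still called, and of the 14, 9. Within set 1 alone, with 2 livers and 7 muscles, 4 were higher in liver and 7 in muscle, against 5.56% and 8.33%. In all 3 fits and in one direction, 3 members were called higher in liver and 6 in muscle. Of the 18 members in ribosomal protein genes, 6 were higher in liver and 2 in muscle without the covariate, and 2 and 0 with it.

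The 4 largest differences towards liver were those of members that differed between the sets. In jointly scaled reads, LOC114110519 in C23H18orf32 had 2.82, 116.9, 100.4 and 147 in control and 2.61, 112.9, 96.2 and 109 in prenatal T liver and 2.47, 1.2, 10.9 and 2.33 in control and 2.15, 5.76, 0 and 163 in prenatal T muscle (log2 difference 3.09, SE 1.03, limma adjusted p = 0.0226), and with the set as a covariate its difference turned to -0.17 (limma adjusted p = 0.848). LOC114116284 in RPS12 had 2.35 to 169.6 (median 112.9) jointly scaled reads in liver and 2.15 to 35.4 (median 4.32) in muscle (log2 difference 3.18, SE 0.79, limma adjusted p = 0.0038), and 0.66 (0.176) with the covariate. LOC114111381 in EIF4A2 and LOC114117650 in NOP56 went from 3.005 and 2.93 to 0.93 and 0.80, and kept an adjusted p under the threshold (limma adjusted p = 0.0201 and 0.0253). Within set 1 their differences were 0.52 and 1.15 (limma adjusted p = 0.549 and 0.107).

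Of the members higher in muscle, 6 were called in all 3 fits. LOC114114261, inside the ubiquitin ligase gene RNF149, had jointly scaled reads of 6.11, 3.38, 1.26 and 0 in control and 4.56, 2.67, 7.8 and 5.21 in prenatal T liver and 42.02, 27.6, 43.5 and 51.2 in control and 34.4, 53.8, 49.5 and 35.4 in prenatal T muscle (log2 difference -3.37, SE 0.35, limma adjusted p = 2.20e-06). The tissues did not overlap in any library. With the set as a covariate the difference was -2.90, and within set 1 -2.78. LOC114115071 in MATR3, a nuclear matrix and RNA-binding protein, had 4.23, 2.03, 4.42 and 5.07 in control and 6.51, 2.67, 5.2 and 1.95 in prenatal T liver and 33.4, 30.01, 28.6 and 65.1 in control and 24.3, 30.7, 41.9 and 11.8 in prenatal T muscle (log2 difference -2.72, SE 0.30, limma adjusted p = 2.61e-06), -2.19 with the covariate and -2.50 within set 1. Its tissues did not overlap either. LOC114113393 in EEF1B2 (log2 difference -1.06, SE 0.23, limma adjusted p = 0.00148), LOC114117058 in LOC101104162 (log2 difference -0.86, SE 0.22, limma adjusted p = 0.0041) and the near-equal LOC114113417 in PADI3 and LOC114117091 (log2 difference -1.37, SE 0.23, limma adjusted p = 0.000215 and log2 difference -1.35, SE 0.23, limma adjusted p = 0.000215) were the others called in all 3 fits. With the covariate their differences were -1.03, -1.24, -0.93 and -0.94 in that order, and within set 1 they were -1.11, -1.50, -1.12 and -1.09. LOC114114259 in SLC25A3, the mitochondrial phosphate carrier, had 0.631 to 7.82 (median 3.57) jointly scaled reads in liver and 7.09 to 16.3 (median 11.5) in muscle (log2 difference -1.59, SE 0.31, limma adjusted p = 0.000642), and within set 1 its limma adjusted p was 0.113. LOC114117367 in RAB3GAP2 had 0.535 to 102 (median 32.9) and 7.68 to 140.1 (median 101.3) and did not pass (log2 difference -1.47, SE 0.70, limma adjusted p = 0.11), nor with the covariate (log2 difference -1.01, SE 0.75, limma adjusted p = 0.373). Those fits leave out the pairing by ewe. With the ewe as a replicate block LOC114117367 passed (log2 difference -1.47, SE 0.29, limma adjusted p = 0.00171), and its muscle value was above its liver value in every ewe.

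Another 7 members were called with the covariate and not without it. The largest difference among them was that of LOC114114232 in ATP5F1B, the catalytic subunit of mitochondrial ATP synthase. It had jointly scaled reads of 31.03, 93.2, 105 and 106 in control and 18.9, 128, 94.9 and 142 in prenatal T liver and of 53.1, 46.8, 58.5 and 65.1 in control and 55.8, 55.7, 43.8 and 562 in prenatal T muscle. Without the covariate its tissues did not differ past the threshold (log2 difference 0.07, SE 0.51, limma adjusted p = 0.95), and with it muscle was higher (log2 difference -1.54, SE 0.23, limma adjusted p = 1.03e-05), as within set 1 (log2 difference -1.10, SE 0.29, limma adjusted p = 0.00836). Among the remaining members with the largest read shares, LOC114118596 in the heat shock gene HSPA8, LOC114117662 in LOC105609544 and LOC114114229 in RPL3, a protein of the large subunit, did not pass without the covariate (log2 difference 0.29, SE 0.18, limma adjusted p = 0.215, log2 difference 0.16, SE 0.19, limma adjusted p = 0.496 and log2 difference -0.33, SE 0.19, limma adjusted p = 0.181), and with it LOC114118596 and LOC114117662 were higher in liver (log2 difference 0.61, SE 0.19, limma adjusted p = 0.017 and log2 difference 0.49, SE 0.19, limma adjusted p = 0.0444). Within set 1 LOC114117662 was higher in liver too (log2 difference 0.72, SE 0.24, limma adjusted p = 0.0411). LOC114118596 did not pass there (log2 difference 0.37, SE 0.24, limma adjusted p = 0.299). The listed position of LOC114118596 also lies inside CLMP and LOC132657867, so its host is not certain.

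**Figure D5:**
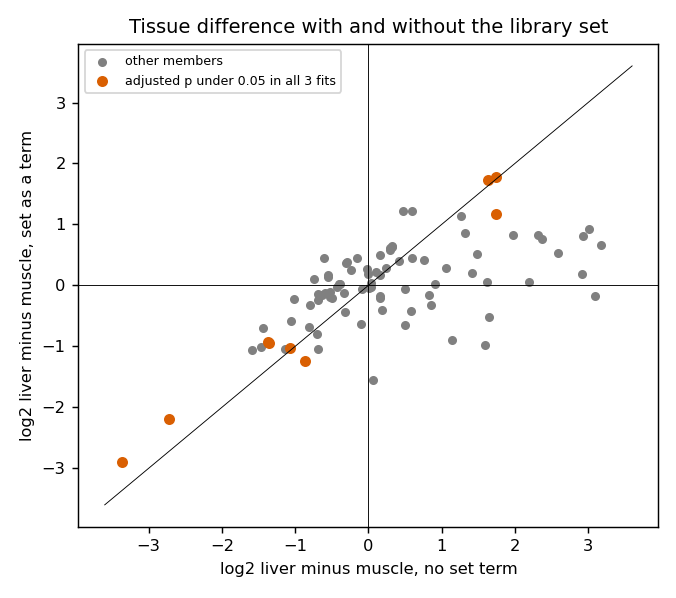
Log2 difference of liver minus muscle for the 89 members without (x axis) and with (y axis) the library set as a covariate, with a line of equal values and orange points for the 9 members called in all 3 fits. Grey points at x above 2, such as LOC114110519 at 3.09, fall to between -0.17 and 0.93 on the y axis.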

How the data were processed

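Small RNA libraries of liver and muscle from 8 ewes were used, 16 in all. Per the submitters' processing notes cutadapt 3.2, STAR 2.6.0c and featureCounts 1.6.1 were used. What each did, and the build, is not stated in these sources. The authors deposited normalised signal values: within an RNA class and tissue, each library's reads had been divided by its own factor. All 4471 snoRNA values above 0 came out as whole reads (tolerance 0.001 reads). These recovered reads gave depth and shares, and were scaled jointly over both tissues by median-of-ratios factors.

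Differences were tested with limma 3.58.1 (variance trend, R 4.3.3) on log2(value + 1) for rows with a mean of at least 5, adjusted by Benjamini-Hochberg over all such rows, with a threshold of 0.05. This scale understates changes of low rows. As alternatives, edgeR 4.0.16 and, for exposure, DESeq2 1.42.0 were run on the recovered reads. Tests were checked on 10 simulated data sets with 20 rows changed 2-fold or 4-fold: liver against muscle recovered 24% and 92%, and set 2 against set 1 in liver 29% and 76%, with 0 wrong signs. In all of these simulations the rows varied independently of each other.

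Liver and muscle of one ewe number are paired, since they come from the same animal per the labels. After removal of group means, a liver correlated best with its own ewe's muscle in 2 of 8 ewes, 48 (r = 0.714) and 255 (0.737). Ewe 98, the other ewe with both libraries in one set, had -0.068, and the rest ran from -0.329 to 0.145. Liver against muscle with the ewe as a replicate block is in the closing section.

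The members and gene lists were chosen with earlier results of these data known. Named members were the 10 with the largest mean read share, the 5 with the smallest p per tissue, the 4 with the largest difference between tissues each way, those nearest the limits and those passing a test; partners in shared hosts were added after their values were seen. A few of the members so named are not reported here. Lists of snoRNAs by name could not be applied to LOC identifiers. Neither sequences nor coordinates are printed.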

Additional observations from a re-analysis of the deposited data

Results flagged for a closer look

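Single libraries were checked for 23 named members in the 4 groups of 4, 92 sets of 4 values, by the gap of the highest or lowest library to its neighbour as a share of the group's range (Dixon's test at 95%, which flags about 1 in 20 groups by chance). It singled out 20 values, 9 of them from muscle of ewe 255, 4 from liver of ewe 48 and 2 from liver of ewe 98, the libraries whose set differs from that of the rest of their group. LOC114116284, LOC114110519 and LOC114111381 passed the muscle limit only through ewe 255. Other members were named for tissue or exposure differences computed with these same libraries. The number of flags in them is thus partly built into the choice of members, and the chance rate is no measure for it.

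Muscle of ewe 255 was the highest prenatal T muscle for LOC114114232 (384.9 normalised reads), LOC114117064 (79.2), LOC114110194 (121.3), LOC114118129 (228), LOC114116284 (24.3), LOC114110519 (111.6), LOC114111381 (22.6) and LOC114117650 (92.2). It was the lowest for LOC114114259 (4.85). Liver of ewe 48 was the lowest prenatal T liver for LOC114117064 (28.6) and LOC114118129 (24.9), and the highest for LOC114117662 (191.9) and LOC114110868 (24.9). Liver of ewe 98 was the lowest control liver for LOC114110194 (22.8) and LOC114118129 (36.9).

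The remaining 5 values came from 4 libraries. Among control muscles, ewe 201 was the lowest for LOC114116284 (1.29) and the highest for LOC114115071 (36.3), ewe 132 the highest for LOC114110519 (7.08) and ewe 131 the lowest for LOC114114261 (18.7). Among control livers ewe 132 was the lowest for LOC114114259 (0.992). Of these 5 values, that of LOC114116284 and that of LOC114114259 rest on 1 read each, and the others on 28, 8 and 23 reads in the order given.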

How the results depend on the processing

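The counts of members called for prenatal T in liver, in muscle and for the difference between tissues were 0 under every alternative run, those without single libraries included. Simulated 2-fold changes were recovered in 7% of cases in liver and in muscle, and in 1% for the difference between tissues. The parts of depth, spread and number of libraries in this were not separated. Liver against muscle gave 35 members and 29 to 46 when single libraries were left out. It gave 38 with the ewe as a replicate block (22 higher in liver, 16 in muscle, 34 shared with the fit without it), which called 0 for the difference between tissues and changed no other count by over 1.5 times. It gave 8 in prenatal T ewes only and 11 in library set 1 only, where fewer libraries were tested. With the library set as a covariate LOC114110519 turned to -0.17. Set 2 against set 1 in liver gave 36 members, 23 to 36 when single libraries were left out (23 without liver of ewe 98, where set 1 is 1 library taken to vary like those of set 2), and 55 when rescaled by the total of snoRNA reads, 26 of them shared. LOC114114261 stayed higher in muscle in all 29 alternatives, between -3.83 and -2.44.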
